A study of Mus musculus with 6 samples.

Results

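The prolactin, STAT5 and Elf5 regulators of alveolar cells were described in mammary organoids whose Erbb3 gene can be switched off with doxycycline (DOX). They are 10 genes, chosen by name: Elf5, Prlr, Jak2, Stat5a, Stat5b, Stat3, Socs2, Socs3, Cish and Nr3c1. A gene counted as measured where at least 1 probe set of the array was annotated to its symbol alone, and it was represented by the one with the highest mean over the 6 arrays. This gave 9 measured genes among 19937, and Prlr, the prolactin receptor, was not analysed here because no probe set was annotated to it. Both groups were organoids of the genotype ErbB3 DOX-KO on the FVB strain, prepared with collagenase and hyaluronidase from the glands of female mice matched in age and embedded in growth factor-reduced Matrigel. The control group (3 arrays) was cultured for 14 days without DOX, and the other group (3 arrays, labelled DOX) for 14 days with 5 µM DOX. The labels give neither the mice's age, the promoter that drives the inducible system, the deleted exons nor the hormones of the medium. No organoids without the knockout allele received DOX in these arrays, so the drug and the knockout cannot be told apart. The design text names 3 biological replicates, and since the labels do not tie them to separate mice, the p-values measure the spread between these arrays.

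Prolactin binds its receptor on alveolar cells and activates the kinase Jak2, which phosphorylates Stat5a and Stat5b. The STAT5 dimers enter the nucleus and, together with the ligand-bound glucocorticoid receptor that Nr3c1 encodes, switch on milk protein genes. Elf5, an ETS transcription factor, acts beside this route and commits luminal progenitors to the alveolar fate. The targets Cish, Socs2 and Socs3 encode suppressors that damp cytokine signals in a feedback loop, and Stat3 is known for driving the death and remodelling of the gland after weaning.

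Values are log2 expression summaries (RMA), so a difference of 1 is a 2-fold change, and differences are given as DOX minus control. A gene is called where its limma p lies under 0.05 after Benjamini-Hochberg adjustment across the 19937 genes. DOX replicate 2 stood apart: its correlation with the other arrays across genes was 0.816 to 0.865, against 0.963 to 0.996 among the other 5, and its highly expressed genes read low (median −1.59 in the top 10% of control levels). Results are therefore given with all 6 arrays and with the 5 arrays that remain without it, and the second fit rests on 2 arrays labelled DOX. Of all genes called, 5.06% were higher with 6 arrays, 46.2% with 5 arrays, 22.8% after a second quantile normalization and 31.8% after cyclic loess. The targeted gene did not read lower with DOX: Erbb3 read 9.78, 9.71 and 9.69 in control replicates 1 to 3 and 10.36, 9.31 and 9.82 in DOX replicates 1 to 3, a difference of 0.10 (limma adjusted p = 0.845), or 0.37 with 5 arrays (limma adjusted p = 0.105). The deleted exons are not in the labels, so a probe set may lie outside them, and groups here are those of the labels. Of the luminal keratins, Krt8 lay at 12.52 ± 0.03 and Krt18 at 12.64 ± 0.05 in control arrays (SD, n = 3), while Krt19 lay at 4.80 ± 0.12, below the median control level of all genes (5.93). The basal keratin Krt5 lay at 5.24 ± 0.35, also below that median, as did 5 of the other 7 basal markers. It differed by 0.07 with all arrays (limma adjusted p = 0.886) and by −0.06 with 5 (limma adjusted p = 0.854). Of the 8 basal markers Oxtr, the oxytocin receptor gene, fell by 1.91 with all arrays (limma adjusted p = 0.0180) and by 1.71 with 5 (limma adjusted p = 2.03e-05). Krt14 differed by −0.96 with all arrays (limma adjusted p = 0.0831), fell by 1.06 with 5 (limma adjusted p = 3.38e-04) and was called in 6 of 16 alternatives. Markers of fibroblasts, adipocytes, endothelium, macrophages, and T and B cells had mean levels of 4.30 to 5.10 in control arrays. These levels were 4.40 to 4.94 on DOX replicate 1, 5.29 to 5.80 on DOX replicate 2 and 4.545 to 5.18 on DOX replicate 3. With 6 arrays 0 of 34 measured were called in limma (2 higher at an unadjusted p under 0.05). Among all genes, limma called 2.26% lower and 0.12% higher in that fit. In the 5 arrays 2 of these 34 rose and 0 fell, beside 12.3% and 14.3% of all genes. They were on the macrophage list, Cd68 by 1.01 and the pan-leukocyte gene Ptprc by 0.38. The other macrophage markers differed by −0.31 to 0.34, in both directions, and were not called. The part of these marker changes in the differences below was not tested.

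Elf5 fell, and the STAT genes, Socs2 and Cish read lower on each array labelled DOX than on any control array. Jak2 and Nr3c1 read below the controls on DOX replicate 2 and within 0.14 of the control mean on the other DOX arrays. With all arrays 1 of the 9 measured genes fell, where 2.26% of all genes were called lower, and limma called 0 higher (0 at an unadjusted p under 0.05), where 0.12% of all genes were. Without DOX replicate 2 Elf5, Stat5a, Stat5b, Stat3, Socs2 and Cish fell, 6 of 9 genes against 14.3% of all genes called lower. In that fit limma called none of the 9 higher (0 at an unadjusted p under 0.05), against 12.3% of all genes. The 3 arrays labelled DOX lay wholly below the 3 control arrays for the same 6 genes, which holds for 20.3% of all genes. The median difference over the 9 genes was −0.96 with 6 arrays and −0.49 with 5 arrays, beside 0.02 and 0.01 over all genes. All 9 had control levels above the median of all genes, where DOX replicate 2 read low. Without the 50% of genes with the lowest means, the median over the remaining genes with 6 arrays was −0.33. The shares over all genes given here are not matched for level. In RNA of whole organoids, fewer cells of a type and less RNA per cell cannot be told apart.

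**Figure D1:**
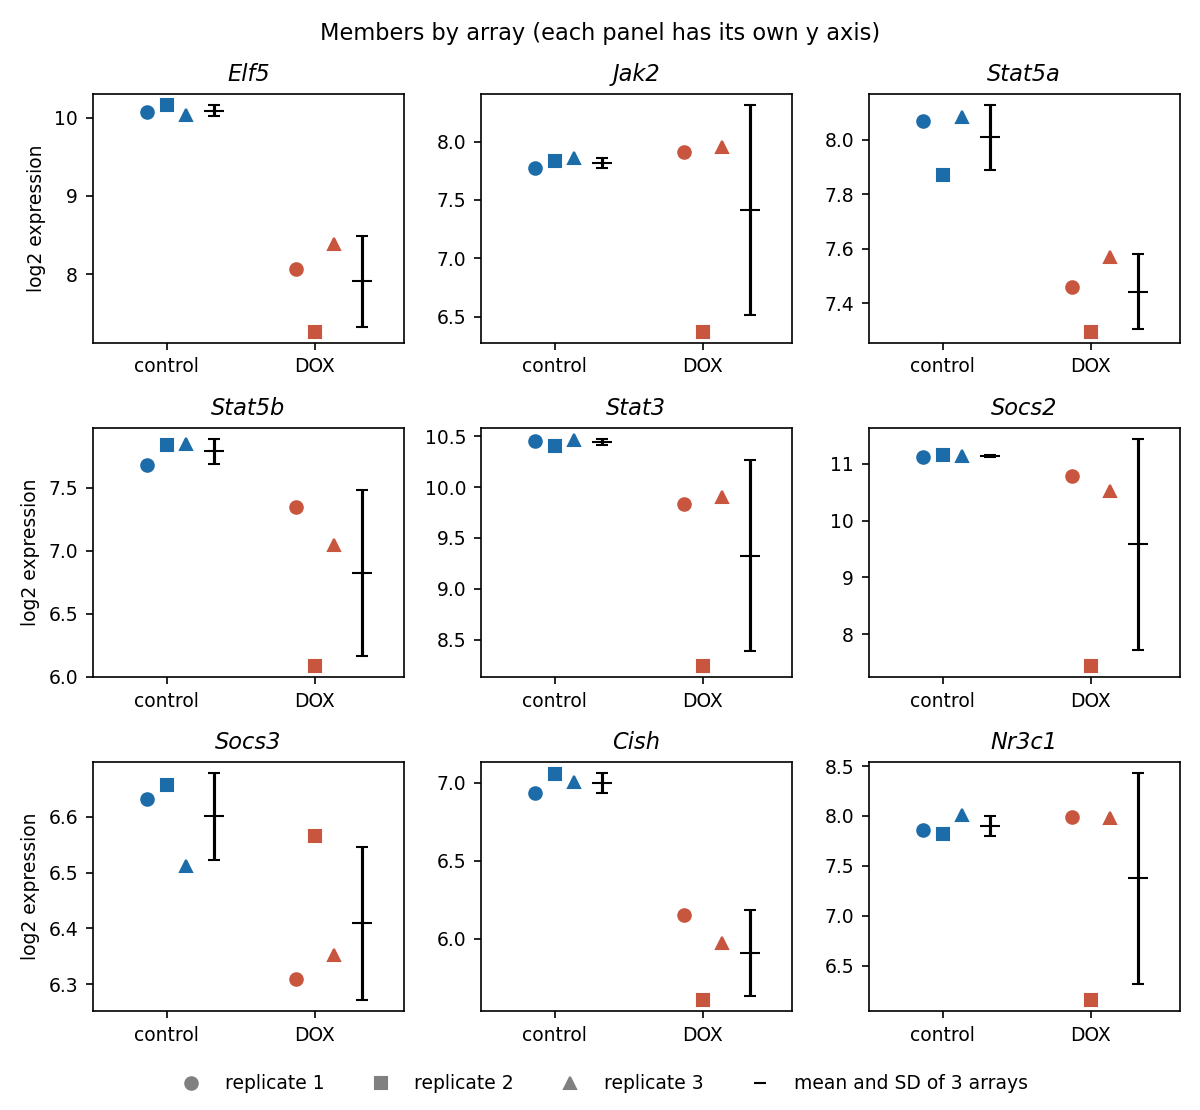
Log2 expression (y axis, a separate scale per panel) of the 9 measured genes on the 3 control arrays (blue) and the 3 arrays labelled DOX (red), with the replicate number as symbol and the group mean ± SD in black. In 6 panels the groups do not overlap, and for Jak2 and Nr3c1 DOX replicate 2 alone reads below the controls.

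Elf5, the alveolar fate factor, had the largest difference of the 9 genes in the fit without DOX replicate 2 and the only call with all arrays. It read 10.08, 10.17 and 10.03 in control replicates 1 to 3 and 8.07, 7.27 and 8.38 in DOX replicates 1 to 3. The groups did not overlap, with 1.65 log2 units between the lowest control and the highest DOX array. The difference was −2.19 (SE 0.31, 95% confidence interval −2.92 to −1.45, limma adjusted p = 0.0189), a level 4.55-fold lower. Without DOX replicate 2 it was −1.86 (SE 0.13, 95% confidence interval −2.14 to −1.59, limma adjusted p = 1.63e-06), or 3.64-fold lower. Ordered from the most negative difference, Elf5 stood at place 170 of 19937 genes with 6 arrays and at place 217 with 5. Its direction held in all 16 alternatives tried (−2.42 to −1.77), and its call in 11 of them. Leaving out some single arrays ended the call. Leaving out control replicate 1, 2 or 3 gave limma adjusted p = 0.136, 0.143 and 0.136, with differences of −2.19, −2.15 and −2.22, and leaving out DOX replicate 1 gave −2.27 with limma adjusted p = 0.0605.

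The RefSeq table (GRCm38.p6) lists 2 start sites for Elf5, whose windows from 250 bases before to 50 bases after the start are shown because this gene had the only call with all arrays. The first lies at chr2:103411848-103412147 and the second at chr2:103423818-103424117, both on the plus strand, and which start the probe set reads was not tested. The motifs searched on both strands were TTCNNNGAA (GAS, the palindrome that STAT5 and STAT3 dimers bind), AGGAAG and ACANNNTGT. AGGAAG, called ETS core here, is a longer form of the letters GGAA that ETS sites share, and GGAA alone was not searched. ACANNNTGT holds the inner letters of the glucocorticoid receptor palindrome. Both windows are in lower case throughout, since capitals here mark a GAS match.
Elf5 start 1: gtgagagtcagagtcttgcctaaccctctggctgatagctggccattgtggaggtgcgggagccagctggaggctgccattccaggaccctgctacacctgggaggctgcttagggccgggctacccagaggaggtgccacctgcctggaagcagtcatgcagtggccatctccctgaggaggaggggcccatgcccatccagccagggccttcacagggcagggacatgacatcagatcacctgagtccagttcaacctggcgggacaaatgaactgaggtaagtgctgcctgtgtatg
Elf5 start 2: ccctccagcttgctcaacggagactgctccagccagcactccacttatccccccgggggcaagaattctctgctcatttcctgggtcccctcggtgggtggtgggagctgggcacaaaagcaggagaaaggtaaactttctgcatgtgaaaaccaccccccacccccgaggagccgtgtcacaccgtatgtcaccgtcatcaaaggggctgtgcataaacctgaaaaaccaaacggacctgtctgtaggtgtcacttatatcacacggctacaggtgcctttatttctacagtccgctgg
Neither window held a match to any of these motifs. Over 32841 promoter windows of 300 bases in the table, 8.30% held at least 1 GAS match, 35.4% an ETS core and 6.85% an inner glucocorticoid receptor palindrome. The absence of these letters in the windows says nothing about binding elsewhere.

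The other alveolar transcription factors and ETS relatives of Elf5 gave no call with all arrays in limma (0 of 13, 2 lower and 0 higher at an unadjusted p under 0.05), and their median difference was −0.53. Among all genes, 2.26% were called lower and 0.12% higher with all arrays. In the fit without DOX replicate 2, 4 of the 13 fell and 2 rose, with a median of −0.16, against 14.3% of all genes called lower and 12.3% higher. Tfap2c, an AP-2 factor of luminal cells, fell by 1.22 in that fit (limma adjusted p = 1.71e-04), against −1.66 with all arrays (limma adjusted p = 0.115). Elf3, an ETS relative of Elf5 in epithelia, fell by 0.92 (limma adjusted p = 1.60e-04), against −1.07 with all arrays (limma adjusted p = 0.0528). Both read less negative than Elf5 in the same fit, and the differences between the genes were not tested.

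Among the STAT factors, Stat5a, Stat5b and Stat3 were lower on every array labelled DOX than on any control array, and all 3 fell without DOX replicate 2. Stat5a, the main STAT5 protein of the gland, read 8.07, 7.87 and 8.08 in control replicates 1 to 3 and 7.46, 7.30 and 7.57 in DOX replicates 1 to 3. The DOX arrays lay close together, and the gap to the lowest control was 0.30. The difference was −0.57 with all arrays (SE 0.18, limma adjusted p = 0.220) and −0.49 without DOX replicate 2 (SE 0.12, limma adjusted p = 0.0102), which is 1.48-fold and 1.41-fold lower. After a second quantile normalization it was −0.29 (limma adjusted p = 0.412), and after cyclic loess −0.23 (limma adjusted p = 0.545). Stat5a was called lower in 3 of 16 alternatives, each of which left out DOX replicate 2 or weighted it at 0.0333.

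Stat5b, its close relative with wider use outside the gland, read 7.68, 7.84 and 7.85 in control replicates 1 to 3 and 7.35, 6.09 and 7.04 in DOX replicates 1 to 3. DOX replicate 2 was far below the other 2. The difference was −0.96 (SE 0.34, limma adjusted p = 0.276) with all arrays and −0.59 (SE 0.13, limma adjusted p = 0.00561) without that array, a level 1.51-fold lower. Of 16 alternatives, 4 called Stat5b lower, cyclic loess with all arrays among them. Stat3, the factor of post-weaning involution, read 10.46, 10.41 and 10.47 in control replicates and 9.84, 8.24 and 9.90 in DOX replicates 1 to 3. The groups did not overlap, and DOX replicates 1 and 3 agree within 0.1. The difference was −1.12 (SE 0.45, limma adjusted p = 0.341) with all arrays and −0.58 (SE 0.11, limma adjusted p = 0.00247) without DOX replicate 2, a level 1.49-fold lower. Stat3 was likewise called lower in 4 of 16 alternatives.

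Stat5a and Stat5b are near-identical copies, and a stretch at their starts is shown because both genes fell in the 5 arrays and their promoters share it. The best matching stretch of 60 bases between their promoter windows is printed 5′ to 3′ on each gene's own strand, with identical bases in capitals. It lies at chr11:100860418-100860477 on the plus strand for Stat5a and at chr11:100822568-100822627 on the minus strand for Stat5b (GRCm38.p6), and 53 of the 60 bases (88.3%) were the same. It covers positions −66 to −7 from the second listed start of Stat5a and −57 to 3 from the second of Stat5b. It is thus nearly all outside transcripts that begin at these second starts. The first listed start of each gene lies upstream of it, and whether transcripts from there hold it was not tested.
Stat5a: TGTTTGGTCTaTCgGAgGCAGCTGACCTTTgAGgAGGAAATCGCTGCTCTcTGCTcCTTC
Stat5b: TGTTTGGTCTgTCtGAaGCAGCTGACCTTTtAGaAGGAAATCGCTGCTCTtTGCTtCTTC
Probe sequences were not used here, and whether the probe sets of these copies share signal was not tested. Each of the 2 start windows of Stat5a and of Stat5b held 1 ETS core (AGGAAG) and no GAS match. The second window of Stat5b also held 1 inner glucocorticoid receptor palindrome.

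In the RefSeq table Stat5b, Stat5a and Stat3 are consecutive protein-coding genes on chromosome 11. Their 4 protein-coding neighbours on each side were looked at after the values of the 3 genes were known. Without DOX replicate 2 limma called 0 of these 8 neighbours (2 at an unadjusted p under 0.05), beside 14.3% of all genes called lower and 12.3% higher. Their differences ran from −0.35 to 0.11, and Ghdc and Naglu missed the threshold narrowly (limma adjusted p = 0.0509 and 0.0545). With all arrays limma also called 0 of the 8 (0 at an unadjusted p under 0.05), beside 2.26% of all genes called lower and 0.12% higher. Their differences then ran from −1.05 to 0.20, beside −1.12 to −0.57 for the 3 STAT genes, which were not called either. Control levels of 4 of the 8 lay below the median of all genes, and the difference between the STAT genes and their neighbours was not tested.

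Of 7 other JAK kinases and STAT factors 5 were measured. Limma called 0 with all arrays, beside 2.26% of all genes lower and 0.12% higher. At an unadjusted limma p under 0.05, 1 of the 5 was lower and 0 higher, and the median over the 5 was −0.38. Without DOX replicate 2, 1 of the 5 fell (median −0.11), where 14.3% of all genes did. That gene was Stat2, which carries type I interferon signals, with −0.91 in that fit (limma adjusted p = 8.19e-04) and −1.07 with all arrays (limma adjusted p = 0.0826).

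**Figure D2:**
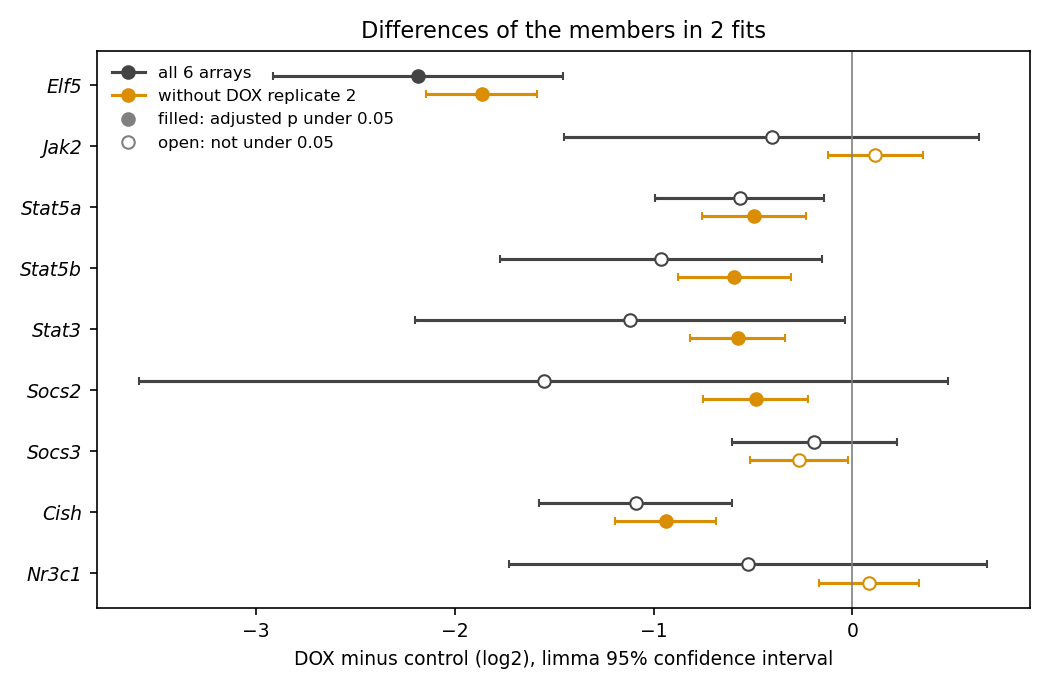
DOX minus control (x axis, log2) with the limma 95% confidence interval for each of the 9 measured genes, with all 6 arrays (dark) and without DOX replicate 2 (orange), where filled points have an adjusted p under 0.05. Elf5 is filled in both fits at −2.19 and −1.86, and 5 other genes are filled only without DOX replicate 2, where the intervals are narrower.

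Of the feedback suppressors, Cish and Socs2 fell without DOX replicate 2 and Socs3 was not called in either fit. Cish, an SH2 protein induced by STAT5, read 6.93, 7.06 and 7.01 in control replicates 1 to 3 and 6.15, 5.61 and 5.97 in DOX replicates 1 to 3. All DOX arrays lay below all controls, with a gap of 0.78. The difference was −1.09 (SE 0.20, 95% confidence interval −1.57 to −0.60), or 2.13-fold lower, and narrowly missed the threshold (limma adjusted p = 0.0515). Without DOX replicate 2 it passed at −0.94 (SE 0.11, limma adjusted p = 1.50e-04), or 1.92-fold lower. Its direction held in all 16 alternatives (−1.29 to −0.92) and it was called lower in 7 of them.

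Socs2, a suppressor of growth hormone and prolactin signals, has 2 probe sets that disagree in size. The one with the higher mean read 11.12, 11.15 and 11.14 in control replicates 1 to 3 and 10.78, 7.44 and 10.51 in DOX replicates 1 to 3. DOX replicate 2 alone was far below the rest. The difference of −1.55 with all arrays (SE 0.85, limma adjusted p = 0.445) shrank to −0.49 (SE 0.12, limma adjusted p = 0.0115) without that array. The other probe set read 8.12, 8.01 and 8.23 in control replicates and 8.04, 7.08 and 7.98 in DOX replicates 1 to 3, where DOX replicate 1 lay within the controls. Its difference was −0.42 with all arrays (limma adjusted p = 0.496 over probe sets) and −0.11 without DOX replicate 2 (limma adjusted p = 0.544 over probe sets). The call on Socs2 held for 1 of its 2 probe sets. Among 16 alternatives Socs2 was called lower in 3, each with DOX replicate 2 left out or weighted at 0.0333.

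Socs3, the suppressor of STAT3 signals through gp130, read 6.63, 6.66 and 6.51 in control replicates 1 to 3 and 6.31, 6.57 and 6.35 in DOX replicates 1 to 3. DOX replicate 2 lay among the controls. The difference was −0.19 with all arrays (limma adjusted p = 0.564) and −0.27 without DOX replicate 2 (95% confidence interval −0.52 to −0.02, limma adjusted p = 0.102). Its other probe set lay near 4.9 and differed by 0.03 with all arrays (limma adjusted p = 0.927 over probe sets) and by −0.07 with 5 (limma adjusted p = 0.750 over probe sets).

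The promoter windows of Cish and Socs3 are shown because GAS matches, in capitals, occur in both while Cish but not Socs3 was called without DOX replicate 2 (the difference between the genes was not tested). They lie at chr9:107296409-107296708 on the plus strand and chr11:117969317-117969616 on the minus strand (RefSeq, GRCm38.p6), from 250 bases before to 50 bases after the start.
Cish: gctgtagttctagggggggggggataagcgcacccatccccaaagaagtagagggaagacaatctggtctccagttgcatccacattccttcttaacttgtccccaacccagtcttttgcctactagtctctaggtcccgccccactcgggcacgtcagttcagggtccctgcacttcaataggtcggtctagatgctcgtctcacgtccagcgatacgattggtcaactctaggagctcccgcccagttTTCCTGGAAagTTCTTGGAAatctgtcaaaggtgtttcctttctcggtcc
Socs3: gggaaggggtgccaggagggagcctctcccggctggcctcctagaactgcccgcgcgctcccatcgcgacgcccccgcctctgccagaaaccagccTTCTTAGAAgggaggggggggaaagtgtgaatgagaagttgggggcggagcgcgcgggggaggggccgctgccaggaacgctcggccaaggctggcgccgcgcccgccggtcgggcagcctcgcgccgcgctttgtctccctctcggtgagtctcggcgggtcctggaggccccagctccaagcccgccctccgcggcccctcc
Cish held 2 GAS matches, TTCCTGGAA at positions 1 to 9 and TTCTTGGAA at positions 12 to 20 counted from the start site, and 2 or more matches occurred in 0.457% of the 32841 windows. Socs3 held 1, TTCTTAGAA at positions −154 to −146. Neither window held the ETS core as searched (AGGAAG) or an inner glucocorticoid receptor palindrome, and the shorter letters GGAA were not counted. A match describes letters, not binding, and no window of Socs2 was in the table.

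Of 15 other inhibitors of JAK and STAT signalling, limma called 0 with all arrays, beside 2.26% of all genes lower and 0.12% higher. At an unadjusted limma p under 0.05, 2 of the 15 were lower and 1 higher, and the median over the 15 was −0.29. With 5 arrays 3 fell and 2 rose, with a median of 0.00, close to the shares of all genes called (14.3% and 12.3%). Socs4, a relative of the SOCS members above, rose by 0.87 in that fit (limma adjusted p = 6.90e-04) and read −0.12 with all arrays (limma adjusted p = 0.937). Ptpn6, the phosphatase SHP-1, fell by 0.57 without that array (limma adjusted p = 0.00291), against −0.80 with all arrays (limma adjusted p = 0.201).

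Jak2, the kinase bound to the prolactin receptor, was called in neither fit nor in any of the 16 alternatives. It read 7.77, 7.83 and 7.86 in control replicates 1 to 3 and 7.91, 6.37 and 7.96 in DOX replicates 1 to 3. DOX replicates 1 and 3 lay slightly above every control, and DOX replicate 2 far below. The difference was −0.41 with all arrays (95% confidence interval −1.45 to 0.64, limma adjusted p = 0.620) and 0.11 without DOX replicate 2 (95% confidence interval −0.13 to 0.35, limma adjusted p = 0.490). The sign of Jak2 turned with that array, and its value was negative in 13 of 16 alternatives.

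Of 14 receptors related to Prlr and their ligands, limma called 0 with all arrays, beside 2.26% of all genes lower and 0.12% higher. At an unadjusted limma p under 0.05, 1 of the 14 was lower and 0 higher, and the median over the 14 was 0.11. With 5 arrays 5 rose and 1 fell, with a median of 0.16, where 12.3% of all genes were called higher and 14.3% lower. Il6st, which encodes gp130, the shared receptor chain of the interleukin-6 family, rose by 0.97 (limma adjusted p = 5.62e-04), and Ghr, the growth hormone receptor, by 0.93 (limma adjusted p = 0.00309). With all arrays these genes differed by 0.20 and 0.33 (adjusted p = 0.865 and 0.735 in limma). Each was called in 3 of 16 alternatives, and Il6st read negative in 3 of them and Ghr in 1.

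Nr3c1, the glucocorticoid receptor, resembled Jak2 in its values. It read 7.86, 7.82 and 8.01 in control replicates 1 to 3 and 7.99, 6.16 and 7.98 in DOX replicates 1 to 3. DOX replicates 1 and 3 lay within the controls, and DOX replicate 2 was the low array. The difference was −0.52 with all arrays (95% confidence interval −1.73 to 0.68, limma adjusted p = 0.584) and 0.08 without DOX replicate 2 (95% confidence interval −0.17 to 0.34, limma adjusted p = 0.640), so its sign also turned.

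Genes that glucocorticoids induce changed both ways in the 5 arrays. With all arrays 1 of 9 fell, where 2.26% of all genes did, and limma called 0 higher (1 lower and 2 higher at an unadjusted p under 0.05), with a median of 0.06. Fkbp5, a chaperone that tunes the receptor, fell by 1.32 (SE 0.23, limma adjusted p = 0.0450), a call made in 8 of 16 alternatives and lost when any array other than DOX replicate 2 was left out (highest adjusted p 0.277). When DOX replicate 2 was left out, 3 of the 9 fell and 4 rose, with a median of 0.56, beside 14.3% and 12.3% of all genes. Fkbp5 then fell by 1.10 (limma adjusted p = 3.17e-05). Of 12 steroid receptors, chaperones and cofactors 9 were measured. Limma called 0 of these with all arrays, beside 2.26% of all genes lower and 0.12% higher. At an unadjusted limma p under 0.05, 1 of the 9 was lower and 0 higher, and the median over the 9 was 0.00. Over 5 arrays the chaperone gene Hsp90aa1 rose by 0.35 (limma adjusted p = 0.0371), against −0.10 with all arrays (limma adjusted p = 0.890), the only called gene of these 9, beside 12.3% of all genes called higher.

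Downstream of prolactin, the casein genes Csn1s2a, Csn2 and Csn1s1 had the largest differences of the genes named here. Of 15 measured milk and other genes of this group 4 fell with all arrays, where 2.26% of all genes did, and limma called 0 higher (0 at an unadjusted p under 0.05), with a median of −2.03, and 11 fell without DOX replicate 2 (median −1.56), beside 14.3% of all genes. The 4 were casein genes: Csn1s2a at −7.63 (SE 0.37), Csn2 at −7.22 (SE 0.29), Csn1s1 at −6.28 (SE 0.57) and Csn1s2b at −3.60 (SE 0.24), with limma adjusted p from 8.70e-04 to 0.00413. Csn2, which encodes beta-casein, read 12.91, 12.85 and 12.84 in control replicates 1 to 3 and 5.12, 6.18 and 5.62 in DOX replicates 1 to 3. Each of the 4 casein calls with all arrays held in all 16 alternatives. A further casein gene, Csn3, was not called with all arrays (−2.80, limma adjusted p = 0.0932). It fell by 2.07 without DOX replicate 2 (limma adjusted p = 3.51e-05). The list was chosen with the fall of milk genes on these arrays already known, so its count is not independent evidence of direction. Beside these, limma called 0 of 8 luminal markers with all arrays, where 2.26% of all genes were called lower and 0.12% higher. At an unadjusted limma p under 0.05, 2 of the 8 were lower and 1 higher. With 5 arrays limma called 2 of them lower and 1 higher, beside 14.3% and 12.3% of all genes. The luminal keratins differed by −1.01 (Krt8, limma adjusted p = 0.145), −0.64 (Krt18, limma adjusted p = 0.135) and −0.0049 (Krt19, limma adjusted p = 0.990) with 6 arrays. Without DOX replicate 2 Krt8 and Krt18 fell, with −0.74 and −0.64 (limma adjusted p = 4.94e-04 and 0.00156), and Krt19 read −0.10 (limma adjusted p = 0.586). The tight junction gene Cldn4 went the other way, at 1.42 with all arrays (limma adjusted p = 0.192), and rose by 1.88 with 5 (limma adjusted p = 1.01e-05). The mean level of 8 luminal markers was 10.48 to 10.51 on the control arrays and 10.51, 9.49 and 10.37 on DOX replicates 1 to 3, a mean that joins these opposite changes. The part of luminal markers in the falls of Elf5 and the STAT genes was not tested.

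STAT3 and involution genes gave 1 fall among 10 with all arrays, where 2.26% of all genes fell, and limma called 0 higher (3 lower and 0 higher at an unadjusted p under 0.05), with a median of −0.46. Igfbp5, an IGF-binding protein known from the involuting gland, fell by 4.78 (SE 0.17, limma adjusted p = 8.70e-04), a call held in all 16 alternatives. Over the 5 arrays left without DOX replicate 2, 4 of the 10 fell and 1 rose (median −0.23), beside 14.3% of all genes called lower and 12.3% higher. Igfbp5 was among those that fell, at −4.74 (limma adjusted p = 2.67e-09).

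**Figure D3:**
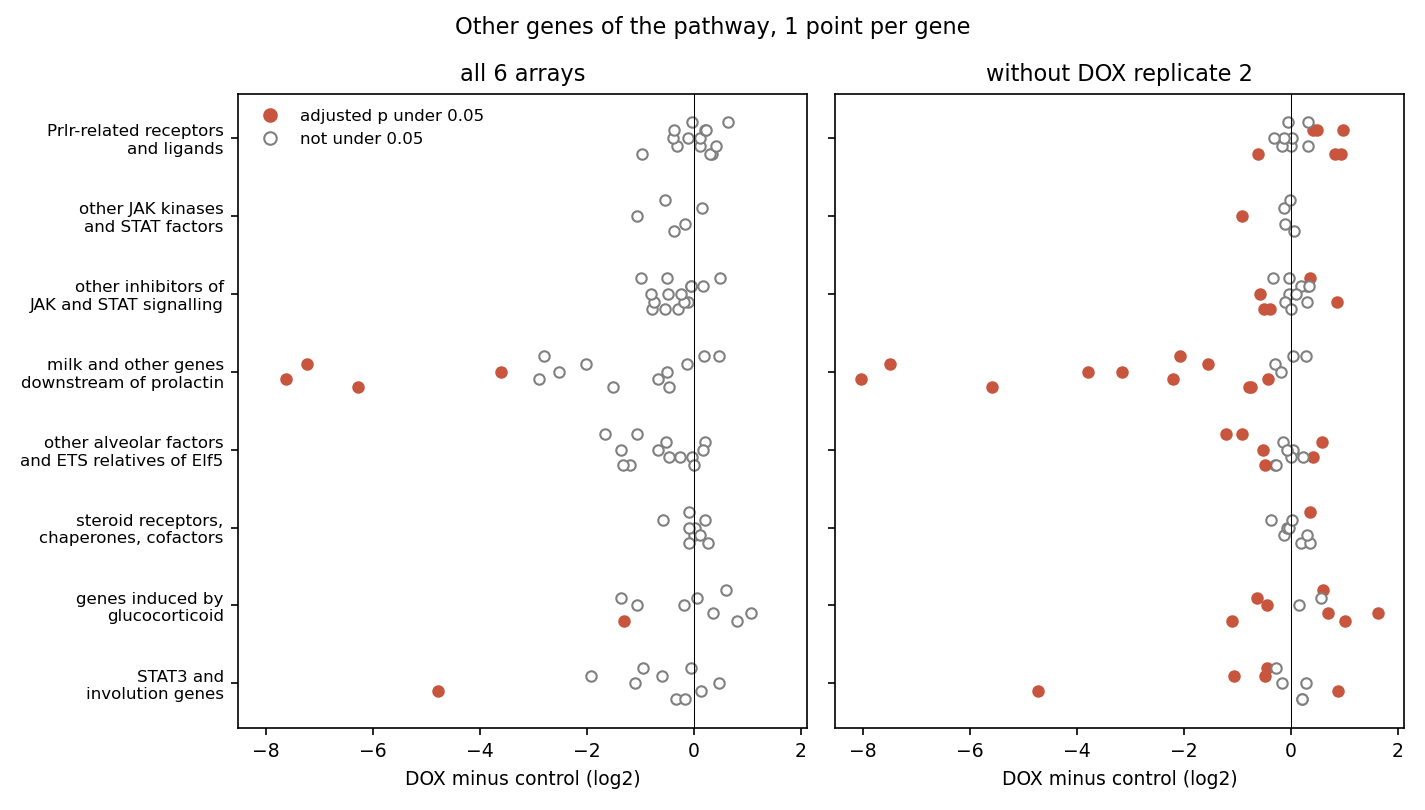
DOX minus control (x axis, log2) of every measured gene in the 8 pathway lists (rows), with all 6 arrays (left) and without DOX replicate 2 (right), where filled red points have an adjusted p under 0.05. The called caseins lie at −3.60 to −7.63, Igfbp5 at −4.78 and Fkbp5 at −1.32 with all arrays. Without DOX replicate 2, calls in both directions appear among receptors, inhibitors, alveolar factors, glucocorticoid-induced genes, and STAT3 and involution genes.

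Since highly expressed genes read low in the median on DOX replicate 2, each regulator was set beside genes of like control level, as the median of all genes in the same 10% step of control levels. On DOX replicates 1 and 3, where these medians lay near 0, 7 of the 9 genes were below the median of their step, all but Jak2 and Nr3c1. DOX replicate 2 also had 7 of 9 below it, but these included Jak2 and Nr3c1 and left out Stat5a and Socs3. On that array Elf5 read −2.83 from the control mean beside a step median of −1.59, and Socs2 −3.69 beside the same median. Stat3 read −2.20 in that step too. Stat5b read −1.70, Nr3c1 −1.74 and Jak2 −1.45 beside −1.06, while Stat5a at −0.71 lay above this median. Within its step Elf5 stood at percentile 2.56, 10.9 and 3.11 on DOX replicates 1 to 3, and Cish at 8.27, 17.5 and 6.87.

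**Figure D4:**
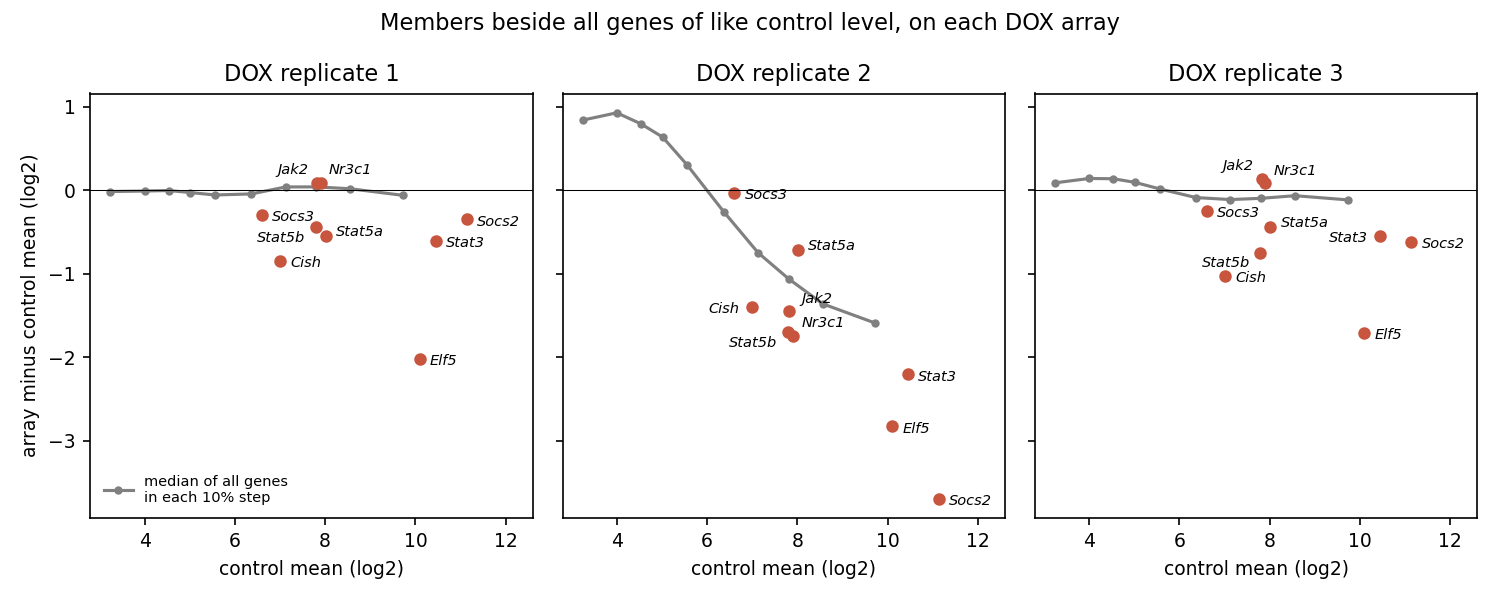
Each array labelled DOX minus the control mean (y axis, log2) against the control mean (x axis, log2) for the 9 measured genes (red), with the median of all genes in each 10% step of control levels (grey). The grey line stays within 0.14 of 0 on DOX replicates 1 and 3 and falls from 0.93 to −1.59 on DOX replicate 2. Elf5, Stat5b, Stat3, Socs2 and Cish lie below the median of their step on all 3 arrays.

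The genes whose values followed Elf5 most closely were Etfb, Cadm4, Tuba1a, Gpd1 and Ggact, with Pearson r from 0.99857 to 0.99996 over the 6 arrays and from 0.99848 to 0.99995 over the 5. They were the top 5 among genes whose mean lay above the median, predicted genes left out. Etfb, an electron transfer flavoprotein subunit, read 9.47, 9.51 and 9.44 in control replicates and 8.52, 8.12 and 8.66 in DOX replicates 1 to 3, and so shared the order of all arrays labelled DOX with Elf5. For Stat5a the closest were Stox2, Klhl5, Vasn, Tnfaip8 and Atl1, with r from 0.99088 to 0.99641 over the 6 arrays and from 0.98559 to 0.99398 over the 5. Control replicate 2 read lowest of the controls for Stat5a and for all 5 of these genes. With 6 points in 2 groups such values largely follow the group means. All 10 genes fell without DOX replicate 2, where 14.3% of all genes did. They were picked on these arrays for following Elf5 or Stat5a, which fell in that fit, so this count is not independent evidence.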

How the data were processed

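RNA of 3 control and 3 DOX organoid samples was measured on Affymetrix arrays, 1 array per sample. The authors deposited log2 values per probe set, made with RMA and the affy package per the submitters' processing notes, and the versions and genome build are not given in the sources used here. RMA corrects background, aligns array distributions and summarises probes, but the deposited quartiles still differed: 4.10 to 4.29 and 7.34 to 7.46 on 5 arrays, against 4.83 and 6.90 on DOX replicate 2. High genes read low on that array and low genes high. The values were used as deposited, and precision is limited by the number of arrays.

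Of 34760 probe sets 21640 had 1 gene symbol, 1321 several and 11799 none in the platform annotation, and the first were reduced to 19937 genes by taking the probe set with the highest mean. The DOX minus control contrast was fitted by lmFit and eBayes (limma 3.58.1, R 4.3.3) over all arrays with no covariate (Benjamini-Hochberg adjustment, threshold 0.05). It was fitted again without DOX replicate 2. Before this the fit was run on simulated data with independent noise for each gene and array. That run held no level-dependent shift like that of DOX replicate 2, so it does not cover its effect. The alternatives were the replicate number as a block, each array left out, filters on low genes, other normalizations, probe set means, robust estimation and array weights. Promoters came from the RefSeq table of GRCm38.p6, which holds no window of Socs2, and that of Nr3c1 is not shown. The genes named are the 10 regulators, and from each list up to 4 genes called with all arrays, or else up to 2 called without DOX replicate 2. Krt8, Krt18, Krt5, Krt14 and Erbb3 were named whatever their values. For Elf5 and Stat5a the 5 genes with the highest Pearson r were added. Genes outside this rule (Cd68, Ptprc, Krt19, Cldn4, Oxtr, Csn3 and the neighbours of the STAT genes) were chosen after their values were seen. The regulators, the lists and the alternatives were chosen with earlier results of these data known.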

Additional observations from a re-analysis of the deposited data

How the results depend on the processing

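With 3 arrays a group and 1 of them apart, counts of calls moved widely, while Elf5, Stat5a, Stat5b, Stat3, Socs2, Socs3 and Cish kept a negative sign in all 16 alternatives. Leaving out 1 array gave 2 to 2454 genes higher and 61 to 2855 lower, against 24 and 450 with all arrays, 0 to 6 regulators lower, 0 to 15 list genes higher and 5 to 27 lower. The high end came from leaving out DOX replicate 2, and with all arrays 0 list genes were higher and 6 lower. Array weights gave that array 0.0333 and called 3643 genes higher and 3752 lower, 6 regulators lower, and 16 list genes higher and 32 lower. A second quantile normalization gave 185 genes higher, 1 list gene higher and 11 lower, and without DOX replicate 2 as well 2360 genes higher, 3408 lower, 6 regulators lower, and 16 and 30 list genes. Cyclic loess gave 557 genes higher, 1197 lower, 4 regulators lower, and 4 and 15 list genes, and median centring 7 genes higher. Filters that dropped 25% or 50% of genes, and a variance trend with robust estimation, each called 2 regulators lower, Elf5 and Cish. Cish then had limma adjusted p = 0.0410, 0.0456 and 0.0335. The median over all genes was −0.18 after median centring and −0.12 and −0.33 after the filters, against 0.02. The replicate number as a block gave 3 genes higher, 159 lower and 0 regulators lower in limma, with Elf5 at −2.19 (limma adjusted p = 0.0694). Same-numbered arrays correlated in their deviations at r = 0.117, 0.194 and 0.0852, and 4 of 6 arrays correlated best with their own number. These values do not settle whether the numbers pair the arrays. The labels do not say that a number marks a shared mouse or day, and the main fit used no block. The other probe set of Socs2 and Socs3 was added after seeing the data. Apart from what the filters and left-out arrays change by construction, the cause was not tested. The deposited values hold no background signal, so a low level could not be told from none.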
